A study of Mus musculus with 12 samples.

Results

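The genes that signal and repair DNA double-strand breaks were followed in mouse embryos at embryonic day 9.5 after X-irradiation. A list of 45 such genes was matched by symbol to the gene IDs of the deposited table, and all 45 were found among its 53647 IDs. All 45 had an abundance of at least 1 TPM in at least 2 libraries, as did 15535 genes of the table, and were tested. TPM is transcript abundance corrected for length and brought to the same total in every library. The 12 RNA-seq libraries fall into 6 groups of 2. The first 3 carry the label p53 -/- (knockout): no treatment, 1 h after 30 Gy of X-rays, and 3 h after that dose. The other 3 carry the label p53 +/+ (wild type), with the same times. The dose rate was 5 Gy per minute. Pregnant mice received the dose, and whole embryos were used. The labels name neither strain nor allele, nor how many embryos or litters entered a library. The p-values therefore measure the spread between these libraries, which may be technical.

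Double-strand breaks are bound by the Mre11-Rad50-Nbn complex, which activates the kinase Atm, while resected DNA activates Atr. Atm and Atr pass the signal to the kinases Chek2 and Chek1, which slow the cell cycle, and chromatin proteins such as Mdc1, Rnf8, Rnf168 and Trp53bp1 mark the damaged region. The break is then either ligated directly by end joining or resected and copied from the sister by homologous recombination. Much of this signalling runs through phosphorylation and ubiquitin, which transcript levels do not show. The early embryo divides fast, and loss of several of these genes is lethal in mouse embryos.

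TPM holds no read depth, and counting error is therefore not known. The labels were checked first with Trp53, which encodes p53. In libraries numbered 1 and 2 Trp53 stood at 265 and 79.1 TPM untreated, 250.1 and 209.5 TPM at 1 h, and 242 and 219.8 TPM at 3 h under the knockout label. Under the wild-type label it stood at 114 and 211 TPM untreated, 114 and 66.8 TPM at 1 h, and 93.7 and 68.0 TPM at 3 h. At 3 h 17 of 18 p53 target genes rose in the libraries labelled knockout, among them Cdkn1a with 499 and 444 TPM against 6.88 and 5.38 TPM untreated. None of the 18 passed the threshold in the libraries labelled wild type at 3 h, where Cdkn1a had 6.96 and 6.18 TPM. Of all genes, 6.25% were called higher under the knockout label and 0% under the wild-type label. The count of 0 therefore does not set the targets apart from other genes. The median log2 fold change of the 18 at 3 h was 3.66 under the knockout label and -0.05 under the wild-type label. At 1 h 4 of the 18 rose under the knockout label and 0 under the wild-type label. Of all genes, 0.103% and 0% were called in either direction. Cdkn1a had 79.35 and 76.17 TPM at 1 h under the knockout label and 6.01 and 8.36 TPM under the wild-type label. Trp53 and its targets thus went against the genotype labels at 1 h and at 3 h, so the groups are called by their labels throughout. Trp53 was uneven within each untreated group. The untreated library labelled knockout and numbered 2 (79.1 TPM) lay within the irradiated libraries labelled wild type (66.8 to 114 TPM). That labelled wild type and numbered 2 (211 TPM) lay within the irradiated libraries labelled knockout (209.5 to 250.1 TPM). The cause was not tested, and every comparison with untreated libraries uses these 2 libraries. On the first principal component of all genes both 1 h libraries numbered 2 stood apart, at 66.4 and 67.9, against -46.1 to 11.8 for the other 10.

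Chek2 and Brca1 were the only members that passed the threshold in any of 9 comparisons on the TPM scale with all 12 libraries in the fit and no block for the library number. Their promoters are shown because these are the genes on which the tests turn. The windows run from 250 bases before to 50 bases after the RefSeq start, in build GRCm38.p6. Chek2 lies at chr5:110839733-110840032 on the plus strand and Brca1 at chr11:101551906-101552205 on the minus strand. Capitals mark CCAAT and TTTCCCGC, searched on both strands without overlap between them, so that ATTGG and GCGGGAAA are the same letters read from the other strand.
Chek2: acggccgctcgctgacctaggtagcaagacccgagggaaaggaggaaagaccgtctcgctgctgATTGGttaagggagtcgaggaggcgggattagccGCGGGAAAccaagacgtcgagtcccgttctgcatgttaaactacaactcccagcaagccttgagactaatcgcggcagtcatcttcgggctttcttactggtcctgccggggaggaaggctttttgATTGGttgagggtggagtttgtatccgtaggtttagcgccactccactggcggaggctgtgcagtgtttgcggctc
Brca1: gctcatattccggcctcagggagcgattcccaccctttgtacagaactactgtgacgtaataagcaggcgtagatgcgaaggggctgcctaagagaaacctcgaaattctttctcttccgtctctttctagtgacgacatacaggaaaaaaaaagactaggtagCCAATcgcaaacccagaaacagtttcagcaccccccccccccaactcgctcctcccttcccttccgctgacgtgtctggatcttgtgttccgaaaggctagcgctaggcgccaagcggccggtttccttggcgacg

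The Chek2 window holds CCAAT at positions -186 and -26 from the start and TTTCCCGC at -152, all on the opposite strand. The Brca1 window holds CCAAT at -86. CCAAT is the box bound by NF-Y and TTTCCCGC a form of the E2F site, the class of factor that drives S-phase genes. Windows were found for 36 of the 45 members, 40 windows in all. CCAAT was in 21 of the 40, from 19 members, against 37.4% of 32851 windows of this length in the reference. TTTCCCGC was in 6 of the 40, from Bard1, Brca2, Chek2, Mdc1, Rad51c and Xrcc6, against 1.07% of all windows. TTTGGCGC, another E2F form, was in 0 of the 40 and 0.514% of all windows, and TTTGAA was in 5 of the 40 and 17.9%. The half-site consensus of p53 was in 2 of the 40, from Brip1 and Fanca, against 8.36% of all windows. A match is a description of the letters, and its relation to the levels was not tested. No window was found for Exo1, Fancd2, Nbn, Prkdc, Rad50, Rad51d, Rad9a, Rbbp8 and Xrcc2.

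The members spanned a wide range of abundance in these embryos. By the median over 12 libraries, Topbp1, the activator of Atr, was the most abundant at 99.97 TPM (80.2 to 128 TPM). Trp53bp1 followed at 84.6 TPM, the nuclease Exo1 at 78.8 TPM, the Ku70 gene Xrcc6 at 68.5 TPM and the scaffold Mdc1 at 67.6 TPM. The ranges of these 5 over the libraries overlap, but the genes were measured in the same libraries. Topbp1 exceeded Trp53bp1, Xrcc6 and Mdc1 in every library. Exo1 exceeded Topbp1 in some libraries, with 133 against 105 TPM in the 3 h library labelled wild type and numbered 2. The lowest were the nuclease Dclre1c at 2.37 TPM, Rad51b at 2.62 TPM, the end-joining kinase Prkdc at 3.40 TPM and Nhej1 at 4.10 TPM. The checkpoint kinases differed in level as well: Chek1 had a median of 56.1 TPM, Chek2 20.6 TPM, Atm 11.6 TPM and Atr 11.3 TPM. The highest library exceeded the lowest 4.56-fold for Rad51d, 3.85-fold for Brca1 and 3.14-fold for Atm, against 1.38-fold for Xrcc4 and 1.45-fold for Fanci.

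**Figure D1:**
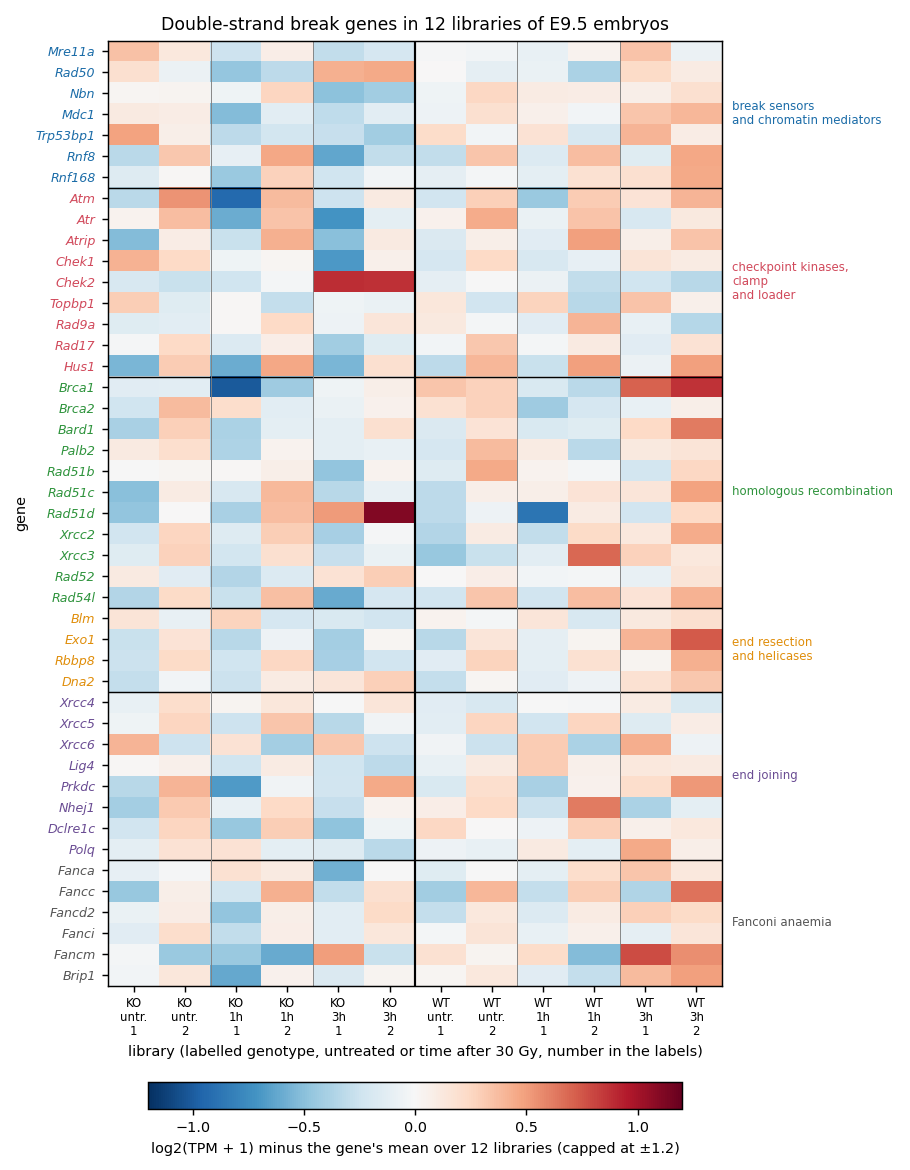
Each cell is log2(TPM + 1) of 1 of the 45 genes (rows, grouped by role) in 1 library (columns, by label, time and number), minus the mean of that gene over 12 libraries; red is above and blue below that mean. Chek2 is high in both 3 h libraries labelled knockout, Brca1 is low at 1 h under both labels, and many rows alternate between libraries numbered 1 and 2.

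Many members differed by library number. In all 6 groups the library numbered 2 was the higher one for 20 of 45 members, against 30.4% of all genes tested, and the lower one for Xrcc6, Topbp1 and Fancm, against 10.8% of all genes. Hus1, part of the 9-1-1 clamp, is an example chosen after its values were seen: at 3 h it had 12.1 and 20.9 TPM under the knockout label and 17.3 and 25.9 TPM under the wild-type label, in libraries numbered 1 and 2. This spread enters the error of the fit without a block, and values with the number as a block are therefore given beside the results that it changes.

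At 3 h in the libraries labelled knockout, Chek2 was the 1 member of 45 that rose against untreated libraries of that label, and no member fell. Chek2, the effector kinase downstream of Atm, had 43.1 and 42.9 TPM at 3 h and 19.97 and 18.8 TPM without treatment. It stood at 19.3 and 22.5 TPM at 1 h, so the 3 h libraries lay above all others and the 1 h libraries did not. The log2 fold change at 3 h was 1.11 (SE 0.148, limma, Benjamini-Hochberg adjusted p = 0.00186), with means of 43.0 ± 0.134 TPM at 3 h and 19.4 ± 0.820 TPM untreated (SD, n = 2 each). Chek2 passed in all 12 fits that left out a library (adjusted p of 0.00279 to 0.0236), and with only the 2 groups compared in the fit the adjusted p was 0.0524. Over all genes tested, 6.25% were called higher and 5.87% lower in this comparison. At an unadjusted p under 0.05 stood 7 of the 45 members and 3914 of 15535 genes.

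With the library number as a block, 8 members passed, 3 higher and 5 lower, against 11.1% of all genes higher and 18.1% lower. The higher ones were Chek2, Rad51d and Dna2. Rad51d, which acts in homologous recombination, had 14.8 and 22.9 TPM at 3 h and 6.95 and 10.1 TPM untreated under the knockout label. Both 3 h libraries lay above both untreated libraries, with a log2 fold change of 1.05 (SE 0.399, adjusted p = 0.140, with the block adjusted p = 0.00359). Dna2, a nuclease and helicase of end resection, had 33.6 and 37.1 TPM at 3 h and 24.6 and 29.5 TPM untreated (log2 fold change 0.38, SE 0.184, adjusted p = 0.252, with the block 0.0265). Dna2 was as high at 3 h under the wild-type label, with 34.6 and 38.2 TPM against 24.7 and 30.7 TPM untreated.

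The 5 members that passed as lower only with the block were Trp53bp1, Rnf8, Nbn, Rad17 and Atr, which act in break recognition and checkpoint signalling. Trp53bp1, which shields ends from resection, had 68.7 and 62.1 TPM at 3 h and 117 and 87.7 TPM untreated (log2 fold change -0.63, SE 0.207, adjusted p = 0.0919, with the block 0.00870). Nbn, a subunit of the complex that binds ends, had 20.9 and 22.1 TPM at 3 h and 30.4 and 30.6 TPM untreated (-0.49, SE 0.163, adjusted p = 0.0960, with the block 0.0144). For both genes the groups did not overlap. Rnf8, the ubiquitin ligase recruited by Mdc1, had 24.8 and 31.5 TPM at 3 h and 30.9 and 48.8 TPM untreated, and its groups overlapped (-0.46, SE 0.352, adjusted p = 0.498, with the block 0.0113). Rad17, the loader of the 9-1-1 clamp, had 14.6 and 17.9 TPM at 3 h and 19.7 and 23.6 TPM untreated (-0.39, SE 0.202, adjusted p = 0.274, with the block 0.0168). Atr, the kinase of resected DNA, had 6.25 and 10.0 TPM at 3 h and 11.3 and 14.4 TPM untreated (-0.62, SE 0.349, adjusted p = 0.321, with the block 0.0252). Each of these 5 genes was lower at 3 h within both library numbers.

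**Figure D2:**
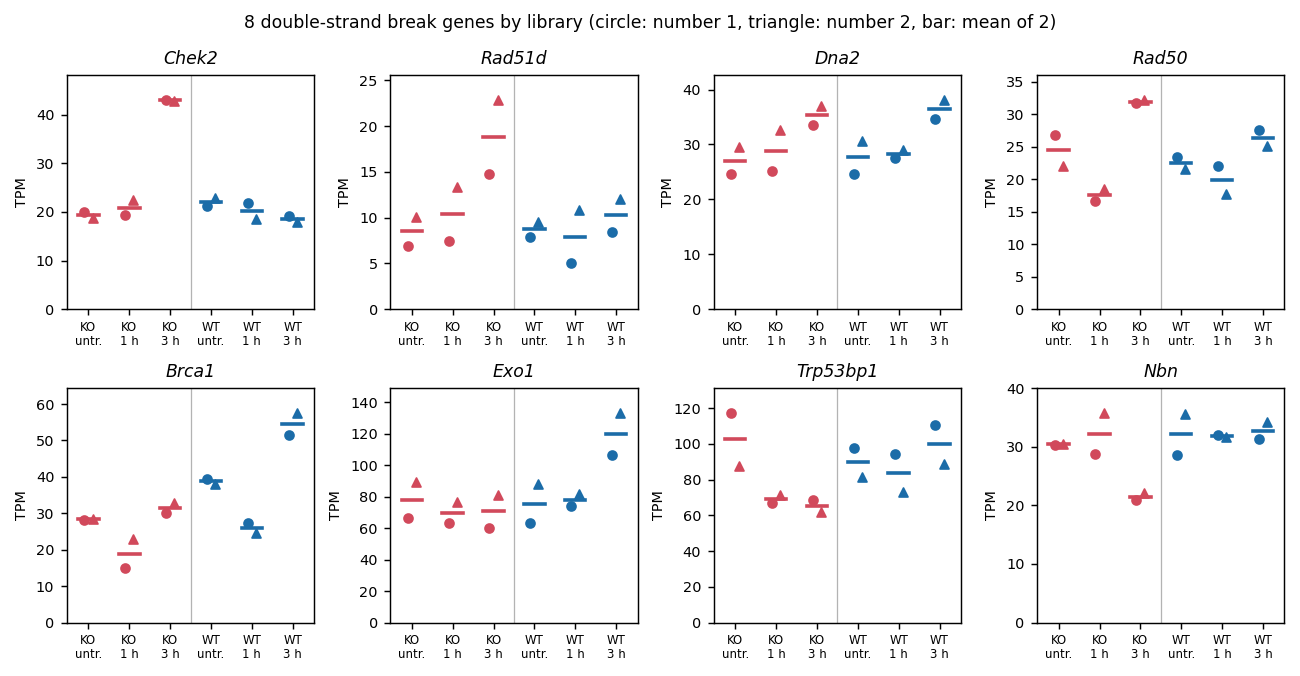
TPM (vertical axis, from 0) of 8 genes in the 12 libraries, by labelled genotype and time (untr., untreated); circles are libraries numbered 1, triangles libraries numbered 2 and bars the mean of 2. Chek2 stands at 43.1 and 42.9 TPM at 3 h under the knockout label and at 22.9 TPM or less in the other 10 libraries; Brca1 and Exo1 are highest at 3 h under the wild-type label.

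By role, the sensors and chromatin mediators had the lowest median at 3 h under the knockout label, a log2 fold change of -0.46 over 7 genes, against -0.12 over all genes tested. Their values ran from -0.63 for Trp53bp1 to 0.38 for Rad50, the only 1 of the 7 above 0. Rad50, the coiled-coil subunit of the same complex as Mre11 and Nbn, had 31.7 and 32.3 TPM at 3 h and 26.8 and 22.1 TPM untreated (SE 0.165, adjusted p = 0.195). Mre11a, the nuclease of that complex, had 30.0 and 32.0 TPM at 3 h and 47.6 and 40.4 TPM untreated (-0.49, SE 0.188, adjusted p = 0.143). The 3 subunits of the complex thus did not share a sign, though Rad50 and Mre11a passed with neither fit. Rad50 passed where the block and size factors were combined. Rad50, Mre11a and Chek1 are given here after their values were seen.

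Over the 9 checkpoint genes the median was -0.14 on the log2 scale, from -0.65 for Chek1 to 1.11 for Chek2. The 2 effector kinases were at the ends of that range. Chek1, the kinase downstream of Atr, had 33.5 and 56.8 TPM at 3 h and 73.1 and 64.7 TPM untreated (SE 0.246, adjusted p = 0.140, with the block 0.0512). The value for Chek1 rests on the 3 h library labelled knockout and numbered 1: without it the log2 fold change was -0.27 (adjusted p = 0.624), and without that numbered 2 it was -1.02 (adjusted p = 0.0456, limma). The recombination genes had a median of -0.09 over 11 genes, from -0.34 for Rad54l to 1.05 for Rad51d, and the 4 resection genes and helicases -0.19. Blm, the helicase lost in Bloom syndrome, had 40.4 and 39.1 TPM at 3 h and 51.1 and 43.2 TPM untreated (-0.24, SE 0.194, adjusted p = 0.537).

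End-joining genes ran from -0.31 to 0.08 at 3 h under the knockout label, with a median of -0.17 over 8 genes. The log2(TPM + 1) scale understates changes of low genes, and Dclre1c, Prkdc and Nhej1 of this role had medians of 2.37, 3.40 and 4.10 TPM. Lig4, the ligase of this pathway, had 7.66 and 7.20 TPM at 3 h and 9.27 and 9.64 TPM untreated (-0.31, SE 0.176, adjusted p = 0.328). Polq, the polymerase of alternative end joining, had 7.47 and 6.49 TPM at 3 h and 7.68 and 9.63 TPM untreated (-0.27, SE 0.205, adjusted p = 0.494). The 6 Fanconi genes, which act in the repair of DNA crosslinks, had a median of 0.01. Fanca, of their core complex, had 12.1 and 18.4 TPM at 3 h and 17.2 and 18.3 TPM untreated (-0.23, SE 0.212, adjusted p = 0.585). Fancm, a translocase that anchors this complex, had 35.1 and 20.2 TPM at 3 h and 24.1 and 17.7 TPM untreated (0.35, SE 0.312, adjusted p = 0.575). No end-joining or Fanconi gene passed with either fit. Without the 3 h library labelled knockout and numbered 1, the sign of the log2 fold change turned for Fanca (0.049) and for Fancm (-0.03).

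Over the 45 genes the median log2 fold change at 3 h under the knockout label was -0.14, and 22 lay above the median of all genes, which was -0.12. Scaling by median-of-ratios size factors moved the median of all genes to -0.02 and that of the members to -0.02, so these medians lay close together under both scalings. With that scaling 21 of 45 members were above 0, against 14 of 45 on the TPM scale. The 3 higher members Chek2, Rad51d and Dna2 then passed without a block. Over all genes 971 were called higher and 912 lower on the TPM scale, against 1312 higher and 806 lower with size factors. The groups did not overlap for 7 members that were higher at 3 h, against 19.0% of all genes, and for 11 that were lower, against 31.6% of all genes.

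**Figure D3:**
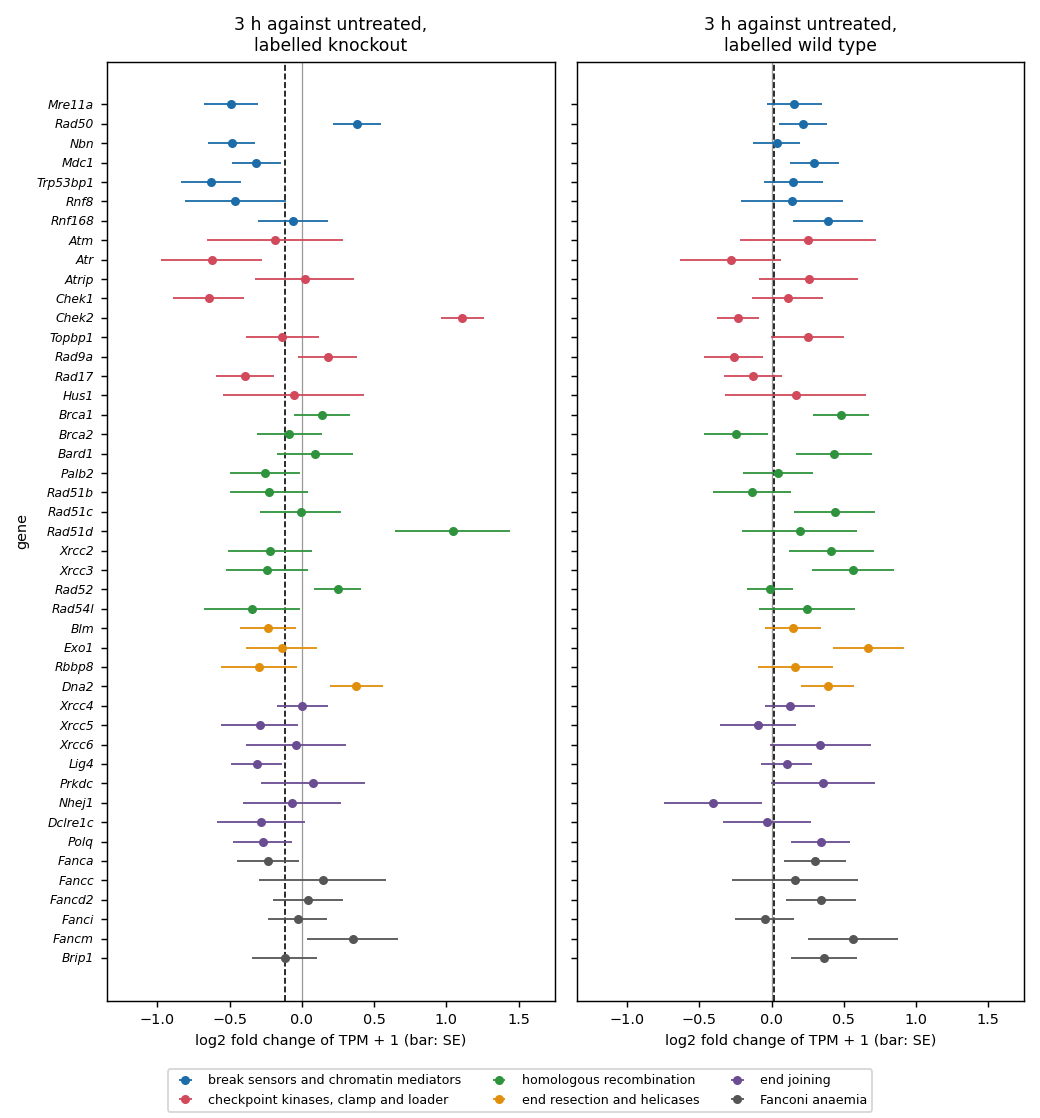
Points are log2 fold changes of TPM + 1 at 3 h against untreated for the 45 genes (rows, coloured by role), with bars of 1 SE, for the knockout label (left) and the wild-type label (right); the dashed line is the median of all 15535 genes. Chek2 at 1.11 and Rad51d at 1.05 stand to the right under the knockout label, while 34 of the 45 points under the wild-type label lie to the right of the dashed line.

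At 3 h under the wild-type label no member passed the threshold against untreated libraries (limma), and 0% of all genes were called. At an unadjusted p under 0.05 stood 2 of the 45 members, Exo1 and Brca1, and 524 of 15535 genes. Exo1, the main long-range resection nuclease, had 106 and 133 TPM at 3 h and 63.0 and 88.2 TPM untreated (log2 fold change 0.67, SE 0.245, adjusted p = 1, with the block 0.0832). Brca1, the recombination mediator and tumour suppressor, had 51.6 and 57.5 TPM at 3 h and 39.4 and 38.0 TPM untreated (0.48, SE 0.194, adjusted p = 1, with the block 0.418). In both genes the 3 h libraries were the highest of all 12.

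Under the wild-type label at 3 h the median log2 fold change of the members was 0.17, against 0.02 over all genes, and 34 of 45 lay above that of all genes. With size factors the medians were 0.14 and -0.01, and again 34 of 45 lay above. All 7 sensors and mediators and all 4 resection genes and helicases had a positive sign under both scalings, with medians of 0.16 and 0.28 on the TPM scale. The Fanconi genes had a median of 0.32, the recombination genes 0.24, and the checkpoint and end-joining genes 0.11 each. The groups did not overlap for 18 members that were higher at 3 h, against 17.3% of all genes. They did not overlap for 4 that were lower, Chek2, Rad9a, Brca2 and Nhej1, against 13.1% of all genes. None of these 22 passed the test, and a list's counts are given here without a test of their own.

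Compared at 3 h between the labels, Chek2 was higher and Brca1 lower in libraries labelled knockout. Chek2 had 43.1 and 42.9 TPM under the knockout label and 19.3 and 18.0 TPM under the wild-type label (log2 fold change 1.16, SE 0.148, limma, Benjamini-Hochberg adjusted p = 0.00175). Brca1 had 30.0 and 32.7 TPM under the knockout label and 51.6 and 57.5 TPM under the wild-type label (-0.78, SE 0.194, adjusted p = 0.0379). Without treatment Brca1 was also lower under the knockout label, with 28.3 and 28.4 TPM against 39.4 and 38.0 TPM, which did not pass the test. Of all genes, 5.25% were called higher and 5.07% lower, so 1 of 45 in each direction is a smaller share than over all genes. At an unadjusted p under 0.05 stood 8 members and 3734 of all genes. Chek2 was called in all 12 fits that left out a library, with adjusted p of 0.00273 to 0.0234. Brca1 was called in 3 of the 12, those without either 1 h library labelled knockout or without the 1 h library labelled wild type and numbered 2, and its adjusted p ran from 0.0123 to 0.221. With size factors the adjusted p of Brca1 was 0.0529.

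With the block, 13 members passed in this comparison, 2 higher and 11 lower in libraries labelled knockout, against 9.67% of all genes higher and 18.5% lower. Rad51d joined Chek2 on the higher side, with 14.8 and 22.9 TPM under the knockout label and 8.43 and 12.1 TPM under the wild-type label (0.81, adjusted p = 0.266, with the block 0.0115). On the lower side, besides Brca1, stood the resection genes Exo1 and Rbbp8, the recombination genes Rad54l, Xrcc2 and Rad51c, the chromatin mediators Rnf8, Trp53bp1 and Mdc1, and Nbn and Rad17. Exo1 had 60.0 and 81.3 TPM under the knockout label and 106 and 133 TPM under the wild-type label (-0.76, SE 0.245, adjusted p = 0.0906, with the block 0.00164). Rad54l, a motor protein of strand exchange, had 16.9 and 22.7 TPM under the knockout label and 29.5 and 35.4 TPM under the wild-type label (-0.70, SE 0.332, adjusted p = 0.247, with the block 0.00410). In both genes neither library labelled knockout reached a library of the other label. Mdc1, the scaffold on phosphorylated histone H2AX, had 54.0 and 61.4 TPM under the knockout label and 84.5 and 88.5 TPM under the wild-type label (-0.58, SE 0.171, adjusted p = 0.0696, with the block 0.0123). Exo1, Rad54l and Mdc1 are given after their values were seen.

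At 3 h the median over the 45 members, knockout label over wild-type label, was -0.38 on the log2 scale against -0.16 over all genes, and 38 of 45 members were below 0. With size factors the medians were -0.22 and -0.01, and 33 of 45 were below 0. Over all genes 815 were called higher and 788 lower on the TPM scale, against 1160 higher and 575 lower with size factors. The sensors and mediators had the lowest median, -0.58, then the resection genes and helicases with -0.45, the recombination genes with -0.38, the checkpoint and Fanconi genes with -0.36 each, and end joining with -0.20. The groups did not overlap for 5 members that were higher, namely Rad50, Chek2, Rad9a, Rad51d and Rad52, against 18.1% of all genes. They did not overlap for 27 members that were lower, against 36.2% of all genes.

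The difference of the 3 h responses between the labels was tested as an interaction. Chek2 was the 1 member that passed, with a response 1.34 higher on the log2 scale under the knockout label (SE 0.210, limma, Benjamini-Hochberg adjusted p = 0.0111), against 2.59% of all genes called higher and 0.856% lower. When any 1 of the 4 libraries at 3 h was left out, or the untreated library labelled wild type and numbered 2, the adjusted p of Chek2 was 0.0506 to 0.0670. With the block 5 members passed, against 5.99% of all genes higher and 7.39% lower. These were Chek2 as higher and, as lower, Exo1 (-0.81, adjusted p = 0.310, with the block 0.0123), Trp53bp1 (-0.78, adjusted p = 0.238, with the block 0.0299), Xrcc2 (with the block adjusted p = 0.0301) and Rnf8 (with the block adjusted p = 0.0306). The median of the members was -0.34, against -0.15 over all genes. With size factors these were -0.21 and -0.03, and over all genes 573 were called higher and 131 lower, against 403 and 133 on the TPM scale.

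At 1 h no member passed against untreated libraries under either label (limma). At an unadjusted p under 0.05 stood 4 members under the knockout label and 2 under the wild-type label, and 1407 and 618 of all genes. Of all genes, 0.103% were called under the knockout label and 0% under the wild-type label. Brca1 had the smallest p of the members under both labels. It had 14.9 and 22.9 TPM at 1 h and 28.3 and 28.4 TPM untreated under the knockout label (-0.59, SE 0.194, adjusted p = 0.390). Under the wild-type label it had 27.3 and 24.6 TPM at 1 h and 39.4 and 38.0 TPM untreated (-0.56, SE 0.194, adjusted p = 1). Both 1 h libraries lay below both untreated libraries under each label. Rad50 had 16.6 and 18.6 TPM at 1 h and 26.8 and 22.1 TPM untreated under the knockout label (-0.45, SE 0.165, adjusted p = 0.456), against 22.04 and 17.7 TPM at 1 h and 23.4 and 21.7 TPM untreated under the wild-type label. Brca1 and Rad50 are given at 1 h after their values were seen.

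The medians of the members at 1 h were -0.08 under the knockout label and -0.01 under the wild-type label, against -0.06 and -0.02 over all genes. Without the 1 h library labelled knockout and numbered 2, one of the pair that stood apart, the median under that label was -0.28. Between the labels no member passed at 1 h or without treatment, where 0.0386% and 0.0193% of all genes were called. In these comparisons 1 and 0 members, and 210 and 186 of all genes, had an unadjusted p under 0.05. No member passed in the difference of the 1 h responses, where 0.00644% of all genes were called, and 0 members and 188 genes had an unadjusted p under 0.05. Untreated, Brca1 had 28.3 and 28.4 TPM under the knockout label and 39.4 and 38.0 TPM under the wild-type label (-0.44, SE 0.194, adjusted p = 1). The labels thus differed in Brca1 by about as much before irradiation as at 1 h (-0.47), in values that did not pass the test.

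Other genes of the pathway, 70 in all and outside the 45, were counted in 4 lists at 3 h under the knockout label. Of 21 other break signalling genes, 1 rose and 1 fell without the block, against 6.25% and 5.87% of all genes, and 2 were higher and 4 lower with it, against 11.1% and 18.1%. Rnf169, a reader of the ubiquitin mark laid by Rnf168, had 26.8 and 37.5 TPM at 3 h and 5.18 and 8.24 TPM untreated (2.11, SE 0.309, adjusted p = 0.00299). Rhno1, a partner of the 9-1-1 clamp, had 53.8 and 50.5 TPM at 3 h and 91.4 and 87.4 TPM untreated (-0.77, SE 0.170, adjusted p = 0.0214). Of 11 other end-joining and single-strand break genes 1 fell without the block, and 1 was higher and 2 lower with it. The gene that fell without it, Lig3, the ligase of single-strand break repair, had 18.5 and 22.2 TPM at 3 h and 35.7 and 41.3 TPM untreated (-0.89, SE 0.183, adjusted p = 0.0153). None of 24 other recombination genes and none of 14 other Fanconi and crosslink genes passed without the block, and 1 and 3 were lower with it. The medians of the 4 lists lay between -0.20 and -0.17 at 3 h under the knockout label, against -0.14 for the 45 genes. Under the wild-type label at 3 h they were 0.08 for break signalling, 0.06 for recombination, 0.001 for end joining and single-strand breaks and -0.04 for the Fanconi list. The 45 genes had 0.17 and all genes 0.02. None of the 70 passed with or without the block. Of all genes, 0% were called there without the block, and 0.00644% higher and 0.148% lower with it. Between the labels at 3 h, without the block, 1 break signalling gene was higher in knockout-labelled embryos, and 1 gene each of the recombination, end-joining and Fanconi lists was lower. With the block the counts were 3 higher and 4 lower, 6 lower, 1 higher and 3 lower, and 2 lower, in the order break signalling, recombination, end joining and Fanconi. Of all genes, 5.25% were higher and 5.07% lower between the labels at 3 h without the block, and 9.67% and 18.5% with it.

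**Figure D4:**
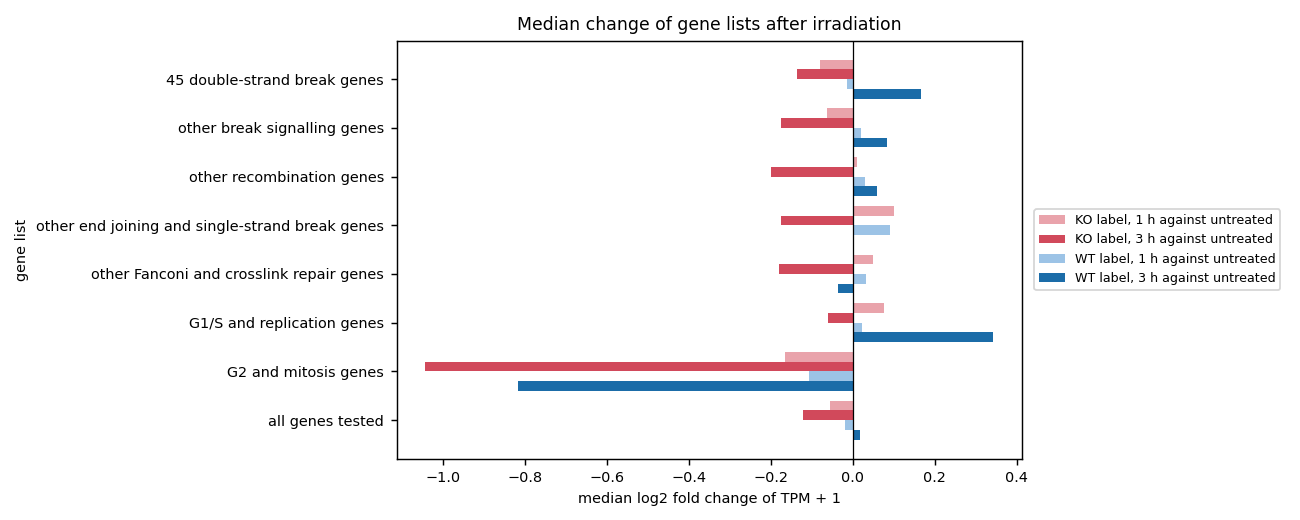
Bars are the median log2 fold change of TPM + 1 against untreated libraries of the same label, for the 45 genes, 4 lists of other repair genes, 2 cell cycle lists and all 15535 genes tested. The lists of repair genes stay within 0.2 of 0, the G2 and mitosis list reaches -1.04 (KO label) and -0.82 (WT label) at 3 h, and G1/S genes reach 0.34 at 3 h under the wild-type label.

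Many members are transcribed with the cell cycle, and 2 cell cycle lists were counted beside them. At 3 h the 20 G2 and mitosis genes had a median of -1.04 under the knockout label, with 10 lower past the threshold without the block and 19 with it, and -0.82 under the wild-type label, with 0 past the threshold without the block and 9 lower with it, against 0.148% of all genes. The 22 G1/S and replication genes had a median of -0.06 under the knockout label, where Ccne1 fell without the block and 2 genes were higher and 2 lower with it, and 0.34 under the wild-type label, where none passed. Under the knockout label 6.25% of all genes were higher and 5.87% lower without the block, and 11.1% and 18.1% with it. Under the wild-type label 0% of all genes were called at 3 h without the block. The median of the 45 members lay between those of these lists under both labels. Between the labels at 3 h the G2 and mitosis genes had a median of -0.35, with 4 lower in knockout-labelled embryos without the block, and 2 higher and 11 lower with it. The G1/S and replication genes had a median of -0.38, with 2 lower without the block and 10 lower with it, and the median of all genes was -0.16. The shares of all genes between the labels were 5.25% higher and 5.07% lower without the block, and 9.67% and 18.5% with it. The part of cell cycle position in the members' values was not tested.

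Cell type markers also moved at 3 h under the knockout label. For their counts, 6.25% of all genes were called higher and 5.87% lower in this comparison, and 11.1% and 18.1% with the block. In bulk embryos fewer cells of a type and less RNA per cell cannot be told apart. Of 6 neural progenitor markers 4 fell, and their summed level was 123 to 125 TPM at 3 h and 284 to 319 TPM untreated. Of 5 somite and mesoderm markers tested 2 fell, with summed levels of 78.7 to 89.3 TPM at 3 h and 152.5 to 175 TPM untreated. Of 6 primitive erythroid markers 4 rose, with 11083 to 13364 TPM at 3 h and 1934 to 5018 TPM untreated. That untreated level was low beside the wild-type label, where these markers summed to 5811.5 to 6002.5 TPM untreated and 8574 to 10570 TPM at 1 h. Of 6 endothelial markers 1 rose, with 177 to 188 TPM at 3 h and 135 to 143 TPM untreated, and of 4 white blood cell markers tested 1 rose, with 14.0 to 15.3 TPM at 3 h and 6.71 to 8.24 TPM untreated. Of 2 decidua markers tested 1 fell. With the block the counts were 4 lower for neural progenitor, 3 lower for somite and mesoderm, 5 higher for primitive erythroid and 3 higher for endothelial markers. No cardiac, visceral endoderm, adult globin or trophoblast marker passed without the block, whereas 3 of 6 cardiac markers, 1 of 7 visceral endoderm markers and 3 of 4 adult globins were higher with it. Of 6 trophoblast markers only 1, Hand1, was tested. Cardiac markers summed to 2422 to 2683 TPM at 3 h and 1428 to 1920 TPM untreated, and visceral endoderm markers to 120.1 to 356 TPM at 3 h and 20.2 to 118 TPM untreated. Adult globin summed to 2781 to 3870 TPM at 3 h and 393 to 1629 TPM untreated. Tpbpa and Psg21 of trophoblast and Prl8a2 and Prl3c1 of decidua were at 0 in all 12 libraries. Under the wild-type label none of these markers passed at 3 h, with or without the block. There 0% of all genes were called without the block, and 0.00644% higher and 0.148% lower with it. These counts therefore cannot tell whether the markers shifted under that label. Between the labels at 3 h, without the block, 4 neural progenitor, 3 somite and mesoderm and 1 decidua marker were lower in knockout-labelled embryos, and 2 cardiac, 1 endothelial and 1 white blood cell marker were higher. With the block 5 neural progenitor and 4 somite and mesoderm markers were lower, and 5 cardiac, 4 endothelial, 2 white blood cell, 3 adult globin and 1 primitive erythroid marker were higher. Between the labels 5.25% of all genes were higher and 5.07% lower without the block, and 9.67% and 18.5% with it. In wild-type-labelled embryos at 3 h the summed levels were 274 to 316 TPM for neural progenitor, 165 to 171 TPM for somite and mesoderm, 1050 to 1226 TPM for cardiac and 4522 to 6537 TPM for primitive erythroid markers. The part of cell makeup in the changes of Chek2, Rad51d or the other members was not tested.

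Neighbouring transcription limits the values of some members. In the GENCODE M21 annotation 20 of the 45 members share exon sequence with another gene, 3 of them on the same strand (Atr, Atrip and Rnf8). The other 17 share it with genes on the opposite strand, of which Ppp1ca at Rad9a reached 984 TPM and Ak6 at Rad17 reached 233 TPM. How strand was treated is not given in the sources used here, so the values of these members may hold reads of both genes. Neither Chek2 nor Brca1 is among the 20.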

How the data were processed

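RNA was made into poly(A)-selected libraries from about 500 ng each and read as pairs of 75 bp, per the labels' protocols. The authors deposited TPM values for 53647 gene IDs, whose columns add up to 999999.1 to 1000000.8, so they carry no depth. The submitters' processing notes list RSEM 1.3.3, STAR 2.7.3a, R 4.3.3, DESeq2 1.42.1 and HTSeq 0.12.3 without roles, and build GRCm39. The sources used here give neither strand setting, annotation release nor read filter. TPM of overlapping or similar genes may share reads.

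Symbols came by gene ID from GENCODE M21 (GRCm38), which matched 52093 IDs (97.1%), and 9 comparisons were tested in R 4.3.3. limma 3.58.1 (lmFit, eBayes with trend) was fitted to log2(TPM + 1), which understates changes of low genes, over 15535 genes with at least 1 TPM in at least 2 of 12 libraries. The fit had 1 mean per group and a spread shared by all groups (6 residual degrees of freedom, 5 with the block). Tests were two-sided, adjusted by Benjamini-Hochberg over all genes tested, with a threshold of 0.05, and every adjusted p printed is of this kind. SE comes from this fit.

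Groups and numbers come from the labels. Same-numbered libraries deviated together from their group means (correlations 0.327 to 0.796 in all 15 pairs of groups), and values of a second fit, with a block for that replicate number, are given where they change a call. Correlations within a group were 0.935 to 0.974, at most 1.10% of values were identical, and none was counted as a copy. Alternatives were the block, a pseudocount of 0.1, no filter, median-of-ratios size factors, only the groups compared, and leaving out each library or both 1 h libraries numbered 2. The alternatives without both untreated libraries numbered 2, and with block and size factors together, were added after the data were seen.

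The 45 members and the other gene lists were chosen with earlier results of these data known. Values per library are given for members called in any comparison, or with the block at 3 h under the knockout label. They are also given for the members of smallest p in that comparison where a role had fewer than 2, and for members named in the text as given after their values were seen. Promoters are RefSeq windows (GRCm38.p6) for 36 of 45 members. Coordinates of other genes are not given, because the builds differ. The fit without a block was tested on simulated data. Its libraries were drawn independently, so that test does not cover the shared deviations of same-numbered libraries. Plots were made in matplotlib 3.10.9 under Python 3.11.15.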

Additional observations from a re-analysis of the deposited data

Results flagged for a closer look

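The response of Chek2 at 3 h differed between the labels by a test of the difference itself. Chek2 had 43.1 and 42.9 TPM at 3 h and 19.97 and 18.8 TPM untreated under the knockout label. Under the wild-type label it had 19.3 and 18.0 TPM at 3 h and 21.3 and 22.9 TPM untreated. The response was 1.34 higher on the log2 scale under the knockout label (SE 0.210, limma, Benjamini-Hochberg adjusted p = 0.0111). It was called in 7 of 12 fits that left out a library (adjusted p of 0.0141 to 0.0670), and the value without both untreated libraries numbered 2 was not called (adjusted p = 0.195).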

How the results depend on the processing

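With the replicate number as a block, 8 members passed at 3 h under the knockout label, 13 between the labels at 3 h and 5 in the difference of the 3 h responses, against 1, 2 and 1 without it. The shares of all genes rose as well. Called higher and lower were 11.1% and 18.1%, 9.67% and 18.5%, and 5.99% and 7.39% with the block, in the same order. Without it they were 6.25% and 5.87%, 5.25% and 5.07%, and 2.59% and 0.856%. The block changed no call of a member in the other 6 comparisons, where 0 members passed under any setting tried. Size factors gave 3 members (Chek2, Rad51d and Dna2) at 3 h under the knockout label, and 1 between the labels at 3 h. Of all 15535 genes they gave 1312 higher and 806 lower in the first of these comparisons, and 1160 higher and 575 lower in the second. Block and size factors together gave 8, 12 and 4: compared with the block alone, Rad17 was replaced by Rad50 at 3 h under the knockout label, Rad17 and Rad51c were lost and Rad50 gained between the labels, and Rnf8 and Xrcc2 were lost and Rad51d gained in the difference of responses. Of 15535 genes, 2118 were then higher and 2032 lower, 1922 higher and 1641 lower, and 1161 higher and 670 lower, in the same order. With only the groups compared, 0 members passed at 3 h under the knockout label and 1 between the labels. Without both untreated libraries numbered 2, 1 passed between the labels at 3 h and 0 in the difference of responses. Without both 1 h libraries numbered 2, 3 passed between the labels, Mdc1 being added. Leaving out 1 library at a time gave 1 to 2 members at 3 h under the knockout label, where Chek1 was added without the 3 h library labelled knockout and numbered 2. Between the labels at 3 h it gave 1 to 4, where Mdc1 and Nbn were added without either 1 h library labelled knockout. In the difference of responses it gave 0 to 1.

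At 3 h under the knockout label, the log2 fold change of Fanca was 0.049 without the 3 h library labelled knockout and numbered 1, and -0.52 without that numbered 2. That of Fancm was -0.03302 and 0.735 in the same fits. The cause was not tested. Of the other single-gene values, 553 kept their direction and their side of the threshold, 46 passed and 19 no longer passed. With 2 libraries a group and no known depth, differences of the size seen in most members could not be told from the spread.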
